A study of Rattus norvegicus with 6 samples.

Results

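The 10 genes described here encode the 3 NR4A nuclear receptors (Nr4a1, Nr4a2 and Nr4a3) and components of the cyclic AMP (cAMP) to CREB route with its feedback (Crem, Creb1, Crtc2, Pde4b, Pde4d, Sik1 and Per1). They were taken by gene name from the 23139 genes of the deposited count tables, and all 10 were listed there. They had been chosen with the contrast of LPS/siponimod against LPS in view, so that their differences between the conditions are given as a description and without p-values. Cortices of Wistar rats at postnatal day 1 were dissociated and kept in culture for 10 days. Primary microglia were then shaken off, purified with CD11b/c beads, and stimulated from the day after their isolation. All 6 libraries received lipopolysaccharide (LPS, a bacterial outer membrane component that activates microglia) at 100 ng/mL. The LPS group (n = 3) also received the solvent DMSO, and the LPS/siponimod group (n = 3) received 50 µM siponimod, a modulator of sphingosine 1-phosphate receptors. Unstimulated cells and cells with siponimod alone were not analysed here, the labels give no time after stimulation, and nothing says whether a replicate is 1 animal or a pool. P-values therefore measure the spread between these cultures.

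As background, cAMP is made by adenylyl cyclases when a Gs-coupled receptor is engaged and is removed by phosphodiesterases. It releases the catalytic subunits of protein kinase A (PKA), which phosphorylate the transcription factor CREB at cAMP response elements (CREs), while coactivators of the CRTC family enter the nucleus once salt-inducible kinases are inhibited. NR4A receptors, Crem, PDE4 enzymes, Sik1 and Per1 are textbook CREB targets, and several of them shut the signal down again. In macrophages and microglia, cAMP is known for restraining the response to LPS.

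Total counts per library ranged from 38080379 to 46643859, and 1 count corresponded to between 0.0215 and 0.0270 CPM (counts relative to the library total, with TMM scaling). Before the results, the other cell types these cultures could hold were examined by marker lists. All 13 listed microglia and macrophage markers were detected, and their summed level was 10249, 8389 and 5617 CPM in LPS replicates 1, 2 and 3 and 4553, 5649 and 3356 CPM in LPS/siponimod replicates 1, 2 and 3. Csf1r, the receptor for colony stimulating factor 1, was the most abundant of them over the 6 libraries together, although Cd68 was the highest in LPS/siponimod replicates 1 and 3 and Itgam in LPS replicate 3, and 3 of the 13 were downregulated by the test defined further on (Aif1, Itgam and Cx3cr1). Cx3cr1, the fractalkine receptor typical of microglia, had 69, 202 and 35 counts against 3, 21 and 4. Cx3cr1 passed the filter on low counts only through LPS, so that nothing is read from its call. The part of these markers in the results was not tested. Markers of the oligodendrocyte lineage summed to 5.34, 5.37 and 36.0 CPM under LPS and to 11.4, 10.3 and 22.6 CPM under LPS/siponimod. Over all libraries together the most abundant gene of this list was Mbp, for myelin basic protein. It was upregulated by the same test, with 149, 161 and 84 counts against 470, 397 and 652, and was lowest in LPS replicate 3. In other genes of the list the libraries numbered 3 stood apart. Olig1, a transcription factor of that lineage, had 515 counts in LPS replicate 3 and 17 in LPS/siponimod replicate 3, against at most 5 in the other 4 libraries, and Pdgfra, a receptor of oligodendrocyte precursors, had 284 and 81 against at most 5. The calls of the 10 genes and of the pathway lists are therefore also given without both libraries numbered 3.

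Of the 7 astrocyte markers, Slc1a3 was the most abundant, the list summed to between 21.0 and 57.7 CPM, and Gfap had 1, 2 and 88 counts under LPS and 0, 0 and 1 under LPS/siponimod. The 6 neuronal markers summed to between 1.06 and 17.0 CPM, with Tubb3 as the most abundant. In that list Map2 had 162 and 115 counts in the libraries numbered 3 and at most 3 elsewhere, whereas Snap25 had 0, 1 and 1 counts under LPS and 94, 153 and 81 under LPS/siponimod. Fibroblast and pericyte markers summed to between 3.98 and 11.9 CPM, and Dcn, the most abundant over all libraries together, had 3, 0 and 4 counts against 456, 49 and 178. Under LPS the most abundant was Col1a1, with 113, 115 and 89 counts against 62, 61 and 76 (log2 FC -0.89, adjusted p = 0.0526). The endothelial list summed to between 92.9 and 213 CPM under LPS and between 26.2 and 81.8 CPM under LPS/siponimod. Over all libraries together its most abundant gene was Cdh5, with Pecam1 higher in LPS replicate 2, and its defining receptor gene Kdr had no count in any library. Flt1, another receptor gene, was the only one of the list past the thresholds, with 409, 462 and 428 counts against 103, 180 and 83 (log2 FC -2.06, adjusted p = 0.00913). In bulk RNA, fewer cells of a type and less RNA per cell cannot be told apart.

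**Figure D1:**
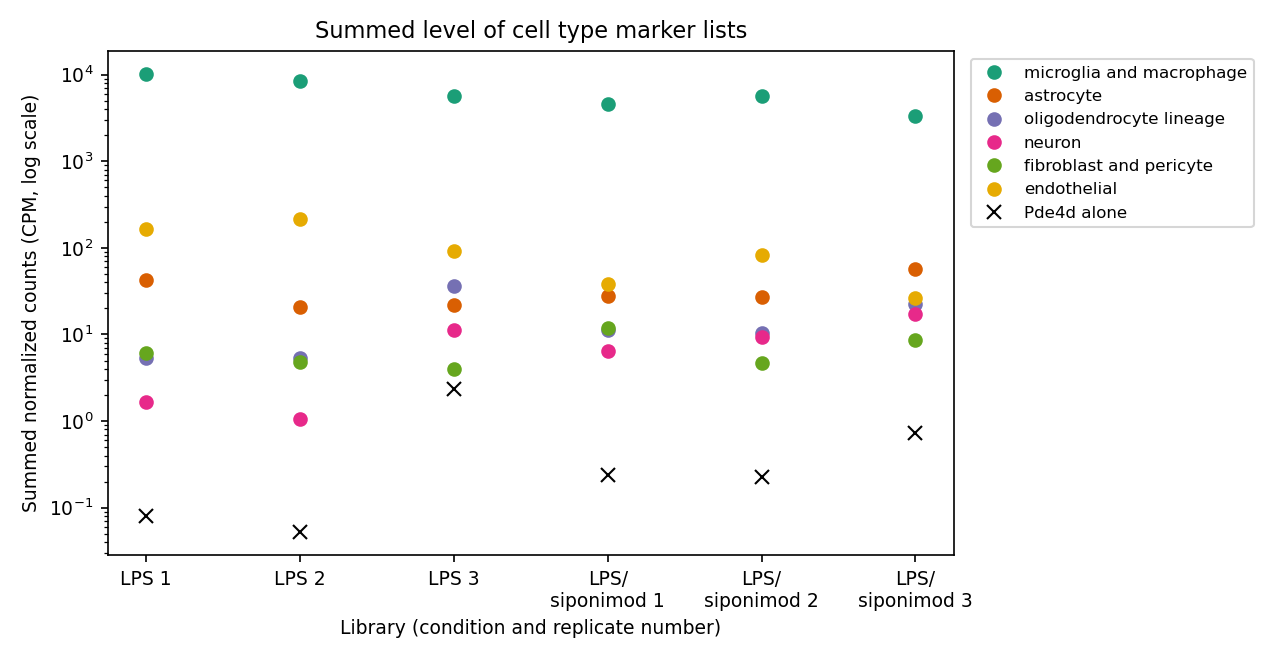
Summed normalized counts (CPM, log axis) of 6 cell type marker lists in each of the 6 libraries, with Pde4d alone as crosses. The oligodendrocyte lineage list is at 36.0 and 22.6 CPM in the libraries numbered 3 and at no more than 11.4 CPM in the other 4, and Pde4d is also highest in these 2.

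The NR4A receptors are nuclear receptors without a known natural ligand that are regulated mainly through how much of them is made. In LPS/siponimod, Nr4a3 and Nr4a2 were far higher than in LPS, while Nr4a1 was not separated between the conditions. Nr4a3 stood at 0.297, 0.260 and 0.269 CPM in LPS replicates 1, 2 and 3, which corresponds to 11, 10 and 10 counts. In LPS/siponimod replicates 1, 2 and 3 it stood at 18.7, 18.2 and 22.4 CPM, or 871, 814 and 919 counts. The groups lay far apart, the lowest LPS/siponimod library exceeding the highest LPS library by 61.4-fold, and replicates were tight, with a coefficient of variation of 7.05% and 11.5%. The fitted log2 fold change (FC) was 6.15 and its standard error (SE) 0.20, a 71.2-fold difference.

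Nr4a2 had 1.51, 0.675 and 1.37 CPM under LPS and 17.3, 12.6 and 21.4 CPM under LPS/siponimod (means 1.19 ± 0.448 and 17.1 ± 4.44, SD, n = 3 each). Replicate 2 was the lowest of its group in both conditions, and the groups did not overlap. The log2 FC was 3.85 (SE 0.39), or 14.4-fold. For Nr4a1 the levels were 1.21, 2.02 and 2.07 CPM under LPS and 1.42, 4.23 and 1.34 CPM under LPS/siponimod. The groups overlapped, 1 library (LPS/siponimod replicate 2) lying above all others. Its log2 FC of 0.40 was smaller than its SE of 0.54, and without LPS/siponimod replicate 2 the sign turned (-0.36). Within same-numbered pairs the log2 differences of Nr4a1 were 0.22, 1.05 and -0.61, against 3.48, 4.12 and 3.92 for Nr4a2 and 5.76, 5.89 and 6.14 for Nr4a3.

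The sequence around the transcription start was taken from RefSeq (build GRCr8, another assembly than the one the reads were mapped to). The windows used here covered 9 of the 10 genes and held none for Nr4a3. These were 17 windows of 300 bases, of which 250 lie before and 50 after the start. Each window was searched on both strands for the palindromic CRE, TGACGTCA, and for its core, TGACG, of which every palindrome holds 2 overlapping copies. At least 1 core was found in 10 of the 17 windows and in 21.2% of all 33469 windows of the table, and a palindrome in 2 of the 17 and in 1.83% of all. Most of the 9 genes are textbook CREB targets and some have several windows, so that nothing is read from these shares. A match is a description of letters and not of binding. The 250 bases before the start of Nr4a1 and Nr4a2 are shown as examples of windows with cores, which are in capitals and read CGTCA where the match is on the other strand. The Nr4a1 window is chr7:134259888-134260137 on the plus strand and the Nr4a2 window is chr3:62104888-62105137 on the minus strand.
Nr4a1: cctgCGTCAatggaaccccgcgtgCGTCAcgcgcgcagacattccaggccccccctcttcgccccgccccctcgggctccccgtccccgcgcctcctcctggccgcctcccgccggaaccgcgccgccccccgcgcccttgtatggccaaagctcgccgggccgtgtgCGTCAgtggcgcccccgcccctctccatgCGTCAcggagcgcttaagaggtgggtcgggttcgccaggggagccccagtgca
Nr4a2: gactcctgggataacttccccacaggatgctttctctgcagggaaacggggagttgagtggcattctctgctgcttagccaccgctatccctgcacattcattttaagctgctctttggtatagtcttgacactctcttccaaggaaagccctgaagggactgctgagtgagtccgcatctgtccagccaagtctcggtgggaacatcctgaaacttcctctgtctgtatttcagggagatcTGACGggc
The Nr4a1 window held 4 cores, a number reached by 0.236% of all windows, and the Nr4a2 window held 1. The NR4A binding element itself, AAAGGTCA on either strand, was found in 1 of the 17 windows (the second of Creb1) and in 1.43% of all.

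**Figure D2:**
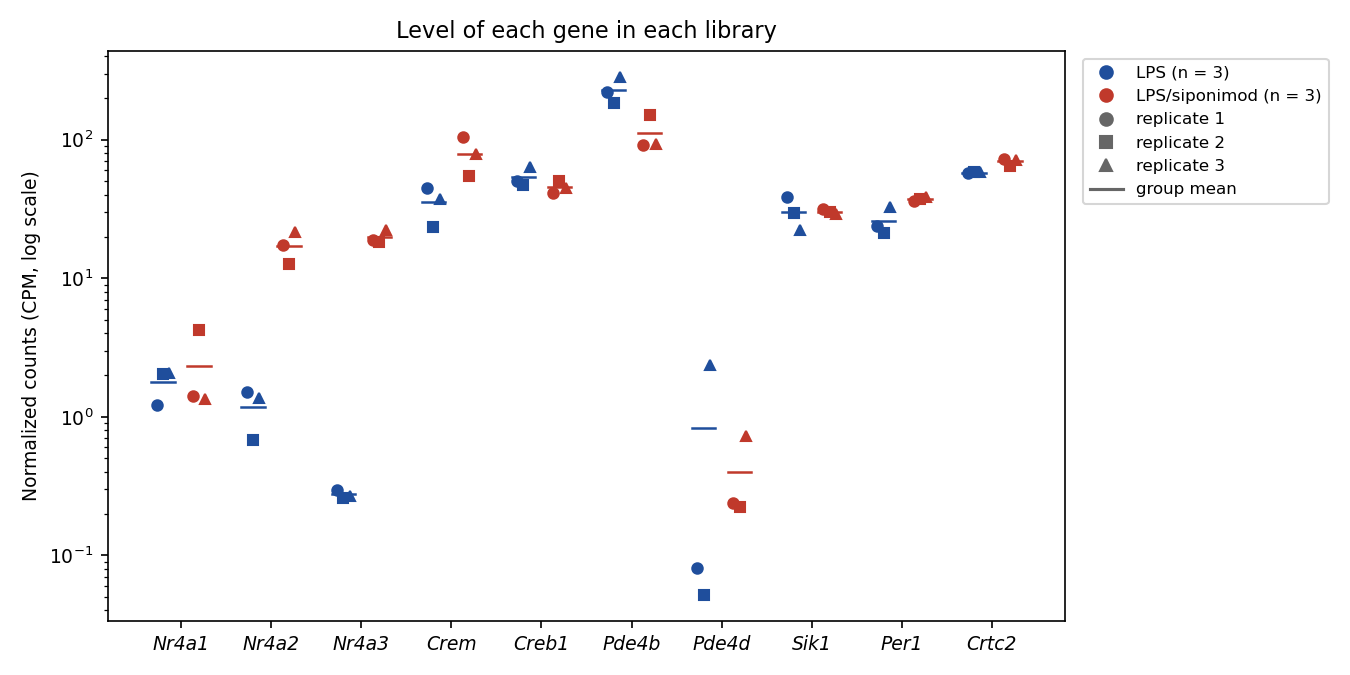
Normalized counts (CPM, log axis) of the 10 genes in each library (LPS in blue, LPS/siponimod in red), with symbols for the replicate number and lines for group means (n = 3). Nr4a3 and Nr4a2 are separated by a wide gap (0.260 to 0.297 against 18.2 to 22.4 CPM for Nr4a3), whereas Nr4a1, Creb1, Sik1 and Pde4d overlap between the conditions.

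Crem encodes activators and repressors that bind CREs, among them the short inducible repressor ICER, which is made from an internal promoter. Its level was 45.0, 23.5 and 37.6 CPM under LPS and 105, 54.3 and 78.8 CPM under LPS/siponimod (means 35.4 ± 10.9 and 79.2 ± 25.2, SD, n = 3 each). Replicate 2 was lowest in both conditions, the lowest LPS/siponimod library exceeded the highest LPS library by 1.21-fold, and the differences within pairs were nearly alike (1.22, 1.21 and 1.07 on the log2 scale). The log2 FC was 1.16 (SE 0.32). Counts are per gene and do not separate ICER from the other forms of Crem. Creb1, the constitutive activator of the same family, had 50.5, 47.1 and 63.5 CPM under LPS and 41.1, 50.4 and 44.8 CPM under LPS/siponimod. These groups overlapped, and the log2 FC of -0.24 had a standard error of 0.15.

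Among the 9 genes with a window, only Crem held the palindromic CRE, in windows 2 and 3 of its 3 windows. They are shown for that reason, with the CRE in capitals. Window 2 is chr17:58984547-58984796 and window 3 is chr17:58985240-58985489, both on the plus strand of GRCr8.
Crem window 2: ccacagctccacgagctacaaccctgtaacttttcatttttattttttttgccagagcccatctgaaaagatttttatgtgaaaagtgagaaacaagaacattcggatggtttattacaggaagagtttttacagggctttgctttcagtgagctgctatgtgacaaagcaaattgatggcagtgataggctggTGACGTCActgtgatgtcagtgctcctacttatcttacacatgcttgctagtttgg
Crem window 3: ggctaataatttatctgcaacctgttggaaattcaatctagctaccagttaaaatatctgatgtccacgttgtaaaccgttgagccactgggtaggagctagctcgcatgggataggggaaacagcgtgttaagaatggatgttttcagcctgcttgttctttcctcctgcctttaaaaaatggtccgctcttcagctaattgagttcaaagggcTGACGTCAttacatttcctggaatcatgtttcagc
A further palindrome of window 3 lay after the start. At least 2 palindromes in 1 window occurred in 0.0418% of all windows of the table. Which of the starts was used in these cells cannot be read from counts per gene.

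Crtc2, a coactivator that joins CREB once it is dephosphorylated, had 57.4, 57.9 and 58.1 CPM under LPS and 72.7, 64.5 and 71.7 CPM under LPS/siponimod. The groups did not overlap, but the shift was small (log2 FC 0.27, SE 0.10). The LPS libraries were almost identical in this gene, with a coefficient of variation of 0.702%.

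The phosphodiesterases hydrolyse cAMP, and PDE4B is the form known to be induced by LPS in myeloid cells. Pde4b was lower under LPS/siponimod, with 219, 184 and 285 CPM for LPS and 91.9, 152 and 92.3 CPM for LPS/siponimod (means 229.5 ± 51.2 and 112 ± 34.5, SD, n = 3 each). All LPS libraries lay above all LPS/siponimod libraries, by 1.21-fold at the closest. The log2 FC was -1.03 (SE 0.27), and the pairs differed in size, with -1.25, -0.28 and -1.63. Neither of the 2 Pde4b windows held a CRE core.

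Pde4d, a second gene of the PDE4 family, was close to undetected in most libraries, with 3, 2 and 88 counts in LPS replicates 1, 2 and 3 and 11, 10 and 30 counts in LPS/siponimod replicates 1, 2 and 3. The libraries numbered 3 were the highest of their group, as they were for Olig1 and Pdgfra. The part of other cell types in this was not tested. In replicates 1 and 2 the LPS/siponimod library had more counts than the LPS library, and in replicate 3 it had fewer. The gene did not pass the filter on low counts and received no fitted value.

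Sik1, a salt-inducible kinase that holds CRTC coactivators in the cytoplasm, had 38.7, 29.6 and 22.1 CPM under LPS and 31.35, 30.2 and 29.0 CPM under LPS/siponimod. The means were 30.1 and 30.2 CPM, the groups overlapped entirely, and the log2 FC was 0.00 (SE 0.21). The coefficient of variation was 27.6% under LPS and 3.83% under LPS/siponimod, a difference in spread that was not tested. The Sik1 window (chr20:9958647-9958896, minus strand) held 2 cores placed closely together, and is shown as an example of a window with cores whose gene had equal means.
Sik1: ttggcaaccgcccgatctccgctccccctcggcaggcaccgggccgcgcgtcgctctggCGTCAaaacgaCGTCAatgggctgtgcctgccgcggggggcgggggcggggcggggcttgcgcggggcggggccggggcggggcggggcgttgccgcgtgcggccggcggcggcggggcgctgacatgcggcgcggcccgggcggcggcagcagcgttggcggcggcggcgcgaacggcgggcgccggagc

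Per1, a clock repressor and a classical CREB target, had 23.9, 21.2 and 32.8 CPM under LPS and 36.3, 37.5 and 38.7 CPM under LPS/siponimod. The groups were separated by a narrow gap, LPS replicate 3 coming closest, and the coefficient of variation was again smaller under LPS/siponimod (23.3% against 3.27%). The log2 FC of 0.53 (SE 0.18) lay below a fold change of 1.5, and without LPS replicate 3 it was 0.74. No core was found in the Per1 window.

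**Figure D3:**
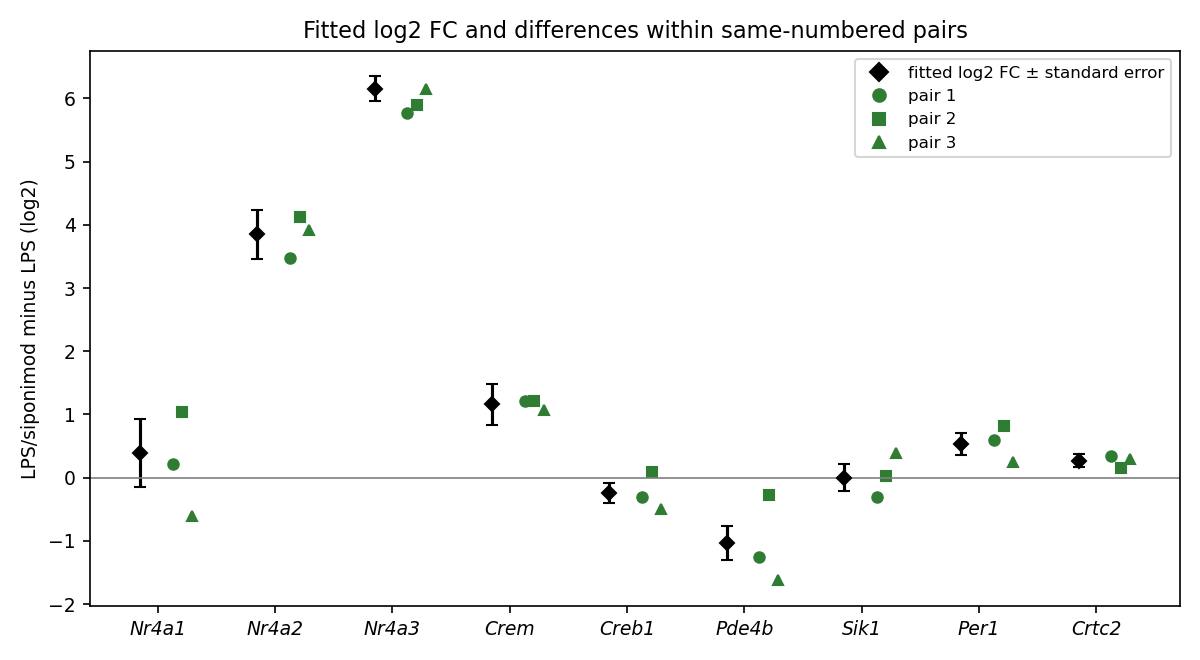
Fitted log2 FC with standard error (black diamonds) and differences of log2 CPM within same-numbered pairs (green symbols) for the 9 genes that passed the filter on low counts. Nr4a2, Nr4a3, Crem, Per1 and Crtc2 are above 0 and Pde4b is below 0 in all 3 pairs, whereas Nr4a1, Creb1 and Sik1 have pairs on both sides of 0.

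A differentially expressed gene (DEG) was defined by an adjusted p of at most 0.05 (edgeR quasi-likelihood test with Benjamini-Hochberg adjustment) and a fold change of at least 1.5. Of the 11977 genes tested, 25.3% were DEGs, 13.6% being higher and 11.7% lower under LPS/siponimod. Of the 10 genes 9 were tested, and 4 were past these thresholds, Nr4a2, Nr4a3 and Crem on the higher and Pde4b on the lower side. Since the genes had been chosen on this contrast, nothing is read from this number. The median log2 FC of the 9 was 0.40, against -0.02 over all genes tested. The groups did not overlap for 6 of the 9, against 49.3% of all genes tested. Nr4a2 and Nr4a3 were past the thresholds in all 6 fits with 1 library omitted. Crem and Pde4b were so in 1 of the 6, that without LPS/siponimod replicate 2 (log2 FC 1.37 and -1.32). Per1 also passed in 1 of the 6, that without LPS replicate 3 (0.74). Without LPS replicates 1, 2 and 3 the values of Crem were 1.40, 0.95 and 1.21 and those of Pde4b -1.05, -1.16 and -0.85. Without LPS/siponimod replicates 1 and 3 they were 0.90 and 1.17 for Crem and -0.91 in both cases for Pde4b. Without both libraries numbered 3, Nr4a2, Nr4a3 and Per1 passed, and Crem and Pde4b did not (log2 FC 1.22 and -0.72).

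By pattern over the 6 libraries, Nr4a3 was most like Olr877 (Pearson r = 0.9993 of log2 CPM), Tmem184c (0.9993) and Rwdd1 (0.998). Nr4a2 was most like Ypel4 (0.999), Atp6v1e1 (0.998) and Emp1 (0.998). These correlations mostly repeat the separation of the conditions, and 797 and 876 of the 11976 other genes had an r above 0.95 with Nr4a3 and with Nr4a2. For Nr4a1 there were 7 such genes, among them Guf1 (0.992) and Slc39a2 (0.986), which shared its high value in LPS/siponimod replicate 2. Of the genes named here, Ypel4, Atp6v1e1, Emp1, Olr877 and Rwdd1 were upregulated DEGs. Olr877 had 0, 0 and 0 counts under LPS and 21, 19 and 18 under LPS/siponimod. Ypel4 had 5, 1 and 4 against 322, 192 and 384. Both passed the filter on low counts only through LPS/siponimod, so that nothing is read from their likeness or calls.

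Other genes of the pathway were taken from 9 lists of well-known members. The lists were chosen with earlier results of these data known, so that their shares of DEGs are given as a description. Of 135 genes listed, 127 were among the genes of the tables, 104 were tested, and 27 were upregulated (26.0%) and 15 downregulated (14.4%) DEGs, with a median log2 FC of 0.14. Over all genes tested these shares were 13.6% and 11.7%, and 25.3% in either direction. All 42 DEGs kept their direction in the 6 fits that left out 1 library, and all 42 were DEGs with the replicate number as a block. However, the number of calls fell to 21, 13, 12 and 16 without LPS replicate 1, LPS replicate 2, LPS/siponimod replicate 1 and LPS/siponimod replicate 3. It was 44 without LPS replicate 3, 40 without LPS/siponimod replicate 2, and 29 (24 higher and 5 lower) without both libraries numbered 3. Of the 42, 26 were also called in that last fit and 16 were not, among them Adcy7, Adcy9, Ptgir, Gnai2, Pde7b, Prkar2a, Rps6ka1, Gadd45b, Klf2, Rxrb and Ncor1. The 9 genes that were DEGs in all 6 of these fits were Adcy6, Pde1a, Akap9, Rps6ka3, Egr2, Gem, Gadd45a, Ciart and Bhlhe40, all of them higher under LPS/siponimod. Of these 9, Pde1a and Gem passed the filter on low counts only through LPS/siponimod, so that nothing is read from their calls. For the DEGs named in the following paragraphs, the largest adjusted p over the 6 fits with 1 library omitted is given where it exceeds 0.05. Pde1a, Pde7b, Gem and Rora passed the filter on low counts only through 1 group and are given without p-values. Fosb and Thbd, also among the upregulated DEGs, passed that filter only through LPS/siponimod, so that nothing is read from their calls. For each list, calls with 1 library omitted are given in the order LPS replicates 1, 2 and 3 and LPS/siponimod replicates 1, 2 and 3. Medians in these fits are over the genes that passed the filter in each of them.

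At the step of cAMP synthesis, 6 of 11 listed genes were tested, of which 1 rose, 2 fell and 3 were not DEGs. Adcy6 rose, with 752, 616 and 261 counts for LPS and 5020, 8634 and 5617 for LPS/siponimod (log2 FC 3.34, SE 0.45, adjusted p = 0.00776). Adcy7, the cyclase known for its abundance in immune cells, fell from 186 ± 27.8 to 115 ± 16.5 CPM (mean ± SD, n = 3 per group, as for all such values that follow), a log2 FC of -0.70 (adjusted p = 0.0308, largest 0.116). Adcy9 also fell (log2 FC -1.43, adjusted p = 0.0465, largest 0.17). The list thus had 3 DEGs among 6 genes (50.0%), and 1, 1, 3, 1, 3 and 1 calls with 1 library omitted, and 1 without both libraries numbered 3. Its median log2 FC of -0.17 had no stable size or sign, being -0.45 without LPS replicate 3, 0.01 without LPS/siponimod replicate 2 and 0.04 with no filter beyond 1 count.

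Among 7 tested of 16 listed Gs-coupled receptors, 1 rose and 2 fell (42.9% in all). Calls with 1 library omitted were 0, 0, 2, 0, 3 and 0, and there was 1 without both libraries numbered 3. The median of -0.47 was between -0.35 (without LPS replicate 2) and -0.17 (without LPS replicate 3) in these fits. Ptger2, the EP2 receptor for prostaglandin E2, rose from 35.1 ± 19.8 to 148 ± 22.3 CPM (log2 FC 2.07, SE 0.41, adjusted p = 0.0173, largest 0.0716), with 1053, 754 and 2134 counts against 7910, 5609 and 6066. The prostacyclin receptor gene Ptgir fell (log2 FC -0.95, adjusted p = 0.041, largest 0.155). In the opposing arm, Gnai2, the main inhibitory G protein subunit of leukocytes, fell from 1387 ± 45.5 to 786 ± 122 CPM (log2 FC -0.82, adjusted p = 0.0212, largest 0.101). Rgs1, which accelerates the shut-off of Gi proteins, rose from 15.8 ± 13.2 to 266 ± 131 CPM (log2 FC 4.07, SE 0.83, adjusted p = 0.0185, largest 0.0716). The other 7 of the 9 tested genes of this list did not pass, so that 22.2% were DEGs, a share near that of all genes. With 1 library omitted there were 0, 0, 2, 0, 2 and 0 calls, and 1 without both libraries numbered 3. The median was 0.36, and between 0.16 (without LPS/siponimod replicate 3) and 0.38 (without LPS/siponimod replicate 1).

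Outside the PDE4 pair described above, 9 of 14 phosphodiesterase genes were tested, and 2 rose and 2 fell (44.4% in all). Omitting 1 library gave 2, 1, 3, 1, 3 and 3 calls, and omitting both numbered 3 gave 3. The median log2 FC of -0.37 ranged from -0.71 (without LPS replicate 2) to -0.03 (without LPS/siponimod replicate 1). Pde1a, a phosphodiesterase activated by calcium and calmodulin, had 12, 1 and 2 counts under LPS and 507, 357 and 290 under LPS/siponimod (log2 FC 5.98, SE 0.82). It passed the filter on low counts only through LPS/siponimod. Its close relative Pde1b went the other way, with 168, 150 and 325 counts against 34, 57 and 69 (log2 FC -2.22, adjusted p = 0.0197, largest 0.0745). Of the cAMP-specific forms, Pde8a rose (0.86, adjusted p = 0.0313, largest 0.118) and Pde7b fell from low counts (-2.41). Pde7b passed the filter on low counts only through LPS, and was a DEG in 1 of the 6 fits with 1 library omitted. With a mean of at least 1 CPM required, 2 rose and 1 fell among 7 tested, and the median was -0.21.

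Of the 18 tested genes for PKA, its inhibitors, EPAC and anchoring proteins, 4 rose and 4 fell (44.4% in all), with a median of -0.39 that was -0.16 without LPS replicate 3. Calls numbered 3, 2, 9, 1, 6 and 1 with 1 library omitted and 7 without both libraries numbered 3. Both catalytic subunit genes fell, Prkaca from 64.0 ± 14.2 to 33.1 ± 5.75 CPM (log2 FC -0.95, adjusted p = 0.024, largest 0.108) and Prkacb from 102 ± 25.7 to 50.3 ± 10.9 CPM (-1.02, adjusted p = 0.0271, largest 0.113). The 2 type II regulatory subunits went in opposite directions. Prkar2a fell (-1.29, adjusted p = 0.0277, largest 0.116), and Prkar2b rose from 574, 421 and 1243 counts to 4909, 3651 and 4199 (2.28, adjusted p = 0.0151, largest 0.0641). Pkib, an inhibitor of PKA, rose from 3.12 ± 2.35 to 27.3 ± 6.61 CPM (log2 FC 3.13, SE 0.73, adjusted p = 0.0269, largest 0.1). The anchoring protein gene Akap9 rose by a small and even amount, from 42.0 ± 4.48 to 74.6 ± 1.22 CPM (log2 FC 0.83, SE 0.12, adjusted p = 0.00824).

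For CREB partners, coactivators and their kinases, 13 of 15 genes were tested, 1 rose and 2 fell (23.1% in all, near the share of all genes). Their number was 2, 1, 4, 1, 4 and 1 with 1 library omitted and 3 without both libraries numbered 3. The median was 0.22, and between 0.14 (without LPS/siponimod replicate 1) and 0.37 (without LPS replicate 2). All 3 encode kinases that can phosphorylate CREB. Rps6ka3, which encodes RSK2, rose from 71.4 ± 7.80 to 132 ± 6.67 CPM (log2 FC 0.88, adjusted p = 0.00859), whereas Rps6ka1 for RSK1 fell from 237 ± 31.0 to 118 ± 24.1 CPM (-1.01, adjusted p = 0.0157, largest 0.074) and Rps6ka4 for MSK2 fell by 0.89 on the log2 scale (adjusted p = 0.0398, largest 0.147). None of the remaining 10, which include Atf1, Crtc1, Crtc3, Crebbp, Sik2 and Sik3, was a DEG. Atf1 had a log2 FC of 0.46 (adjusted p = 0.0719) and was a DEG without LPS replicate 3 and without both libraries numbered 3. Crtc1 had a log2 FC of 1.04 (adjusted p = 0.0666) and was a DEG with the replicate block and without LPS/siponimod replicate 2.

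**Figure D4:**
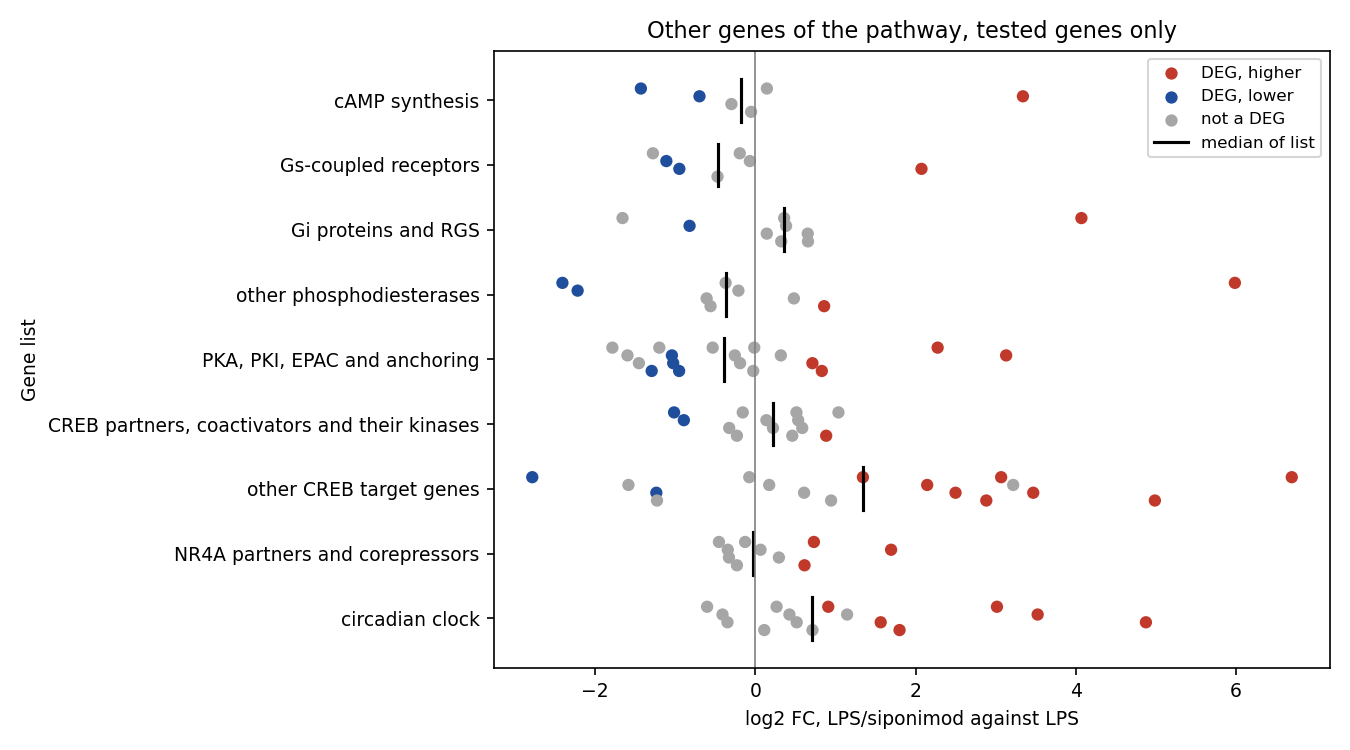
log2 FC of LPS/siponimod against LPS for the 104 tested genes of 9 lists of the pathway, with upregulated DEGs in red, downregulated DEGs in blue, other genes in grey and list medians as black bars. The list of other CREB target genes has a median of 1.34, or 0.78 over genes with a mean of at least 1 CPM. Both medians include genes such as Gem that passed the filter only through the group in which they were high. Upregulated and downregulated DEGs occur side by side in 7 of the 9 lists.

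Among 22 other genes known to respond to CREB, many of which also respond to other signals, 17 were tested. Of these 8 rose, 2 fell and 7 were not DEGs (58.8% DEGs), with a median log2 FC of 1.34. Upregulated calls numbered 4, 6 and 10 without LPS replicates 1, 2 and 3 and 3, 6 and 4 without LPS/siponimod replicates 1, 2 and 3, and downregulated calls 0, 0, 2, 0, 4 and 0 in the same order. Without both libraries numbered 3, 8 were upregulated and 0 downregulated. Some genes of this list, such as Gem, passed the filter on low counts only through the group in which they were high. With a mean of at least 1 CPM over all libraries required, 6 were upregulated and 2 downregulated among 14 tested, and the median was 0.78. Gem meets this requirement too, through LPS/siponimod (means 0.214 and 22.4 CPM), so that the requirement does not remove all such genes. Gem, a small GTPase gene, had 3, 5 and 16 counts under LPS and 662, 572 and 1647 under LPS/siponimod (log2 FC 6.69, SE 0.82). Gadd45a, a growth arrest and DNA damage gene, rose from 5.64 ± 1.95 to 179 ± 84.2 CPM (log2 FC 4.99, SE 0.47, adjusted p = 0.00457), whereas its relative Gadd45b fell from 115 ± 25.4 to 49.0 ± 17.9 CPM (-1.23, adjusted p = 0.0288, largest 0.12). Egr2, a zinc finger factor of the immediate early class, had 47, 49 and 69 counts against 591, 327 and 510 (2.88, adjusted p = 0.0062), and Egr1 of the same family was not a DEG (-0.07, adjusted p = 0.778). Klf2, a Krüppel-like factor, fell (-2.78, SE 0.69, adjusted p = 0.0312, largest 0.107). Fos, often the first CREB target to be measured, overlapped between the groups with 228, 257 and 58 counts against 167, 633 and 171 (0.61, adjusted p = 0.551), and its highest library was LPS/siponimod replicate 2, as it was for Nr4a1. Il10, an anti-inflammatory cytokine gene, had 1157, 1688 and 2038 counts against 405, 1329 and 199, without overlap in CPM. Its log2 FC of -1.58 did not pass (adjusted p = 0.12), but was -2.67 and passed without LPS/siponimod replicate 2.

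Of 10 tested partners and corepressors of NR4A receptors, 3 rose and none fell (30.0% DEGs). With 1 library omitted 3, 0, 3, 1, 3 and 1 were called, and 1 without both libraries numbered 3. The calls without LPS replicate 3 were 2 upregulated genes and 1 downregulated gene, Ncoa1. The median of -0.03 lay near 0, between -0.21 (without LPS replicate 3) and 0.13 (without LPS replicate 2). The 3 genes that rose in the main comparison included the corepressor gene Tle3 (from 47.1 ± 8.74 to 152 ± 44.8 CPM, log2 FC 1.69, adjusted p = 0.00964, largest 0.052). The others were the retinoid X receptor gene Rxrb (0.73, adjusted p = 0.0146, largest 0.0687), whose protein can pair with NR4A1 and NR4A2, and the corepressor gene Ncor1 (0.61, adjusted p = 0.0209, largest 0.0962).

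Of 15 tested clock genes apart from Per1, 6 rose and none fell (40.0% DEGs). The number was 6, 2, 6, 4, 6 and 5 with 1 library omitted and 4 without both libraries numbered 3. The median of 0.71 was 1.11 without LPS replicate 1, 0.32 without LPS replicate 3 and 0.41 without both libraries numbered 3. Rora, 1 of the 6 that rose, had 9, 2 and 5 counts under LPS and 95, 37 and 88 under LPS/siponimod. It passed the filter on low counts only through LPS/siponimod, so that nothing is read from its call. With a mean of at least 1 CPM required, 5 rose and none fell among 14 tested, and the median was 0.61. Bhlhe40, which represses clock-driven transcription, had 238, 63 and 104 counts under LPS and 6768, 3102 and 4233 under LPS/siponimod (log2 FC 4.87, SE 0.60, adjusted p = 0.00703). Ciart, another clock repressor gene, rose from 4.60 ± 0.478 to 16.0 ± 2.31 CPM (1.80, adjusted p = 0.00552), and Clock itself rose from 39.4 ± 5.18 to 74.1 ± 7.41 CPM (0.91, adjusted p = 0.0103, largest 0.0523). Per2, the relative of Per1, was listed under the CREB targets. It had 432, 572 and 354 counts under LPS and 177, 369 and 136 under LPS/siponimod, a log2 FC of -1.23 that did not pass (adjusted p = 0.0616) and that passed with the replicate block and without LPS/siponimod replicate 2, while Per1 lay on the other side of 0.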

How the data were processed

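mRNA captured from total RNA of 6 cultures was sequenced as single reads. The authors trimmed the reads, mapped them in the CLC Genomics Workbench to the rat genome (mRatBN7.2) and deposited, for each library, a table of raw read counts by gene. The handling of multi-mapping reads, strand and introns is not given in the sources used here, so that near-identical, overlapping or antisense genes are uncertain. An empty row of 1 table was left out.

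Counts were analysed with edgeR 4.0.16 in R 4.3.3. Genes were kept by filterByExpr (minimum count 10, minimum total 15), scaled by TMM and tested by the quasi-likelihood F test (glmQLFit, glmQLFTest) on condition alone. The standard error is the log2 FC divided by the square root of F. Log2 CPM used a prior count of 2. DESeq2 1.42.0, limma-voom (limma 3.58.1), RLE scaling, other filters, a replicate block and each library left out were alternatives. Leaving out both libraries numbered 3 was chosen after seeing the marker levels. The procedure was tested on simulated data. A gene that was not a DEG is not thereby shown to be unchanged.

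Deviations from the group mean correlated at 0.42, 0.545 and 0.611 between same-numbered libraries. On this evidence the replicate block was taken as a paired alternative, while all reported calls and p-values come from the fit without it unless stated. No 2 libraries were identical. With 3 against 3 libraries an exact permutation test of 1 gene cannot go below p = 0.1. The members and gene lists were chosen with earlier results of these data known. Named were the 10 members, up to 3 DEGs per list and direction with the smallest adjusted p, the 3 genes most like each NR4A receptor, and of each marker list the most abundant gene and those at 0. Atf1, Crtc1, Crtc3, Crebbp, Sik2, Sik3, Egr1, Fos, Il10, Per2 and the marker genes Olig1, Pdgfra, Gfap, Map2, Snap25, Aif1, Itgam, Cx3cr1, Cd68, Col1a1, Pecam1 and Flt1, and Ncoa1, were chosen after their values were seen. So were Fosb, Thbd and Rora. Protein identities planned for the NR4A receptors, CREB factors and PDE4 enzymes were not analysed here. Some genes that the rule names are not reported here.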

Additional observations from a re-analysis of the deposited data

How the results depend on the processing

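The number of DEGs was 3036, and between 2318 and 4074 with RLE scaling, DESeq2, limma-voom, other filters, the replicate block or without both libraries numbered 3. Without 1 library it ranged from 651 to 3713, the number of the 10 genes past the thresholds from 2 to 4, and that of the other pathway genes from 12 to 44 (49 with the block, 42 in the main comparison). The lowest values came without LPS replicate 2 (651 DEGs) and without LPS/siponimod replicate 1 (12 pathway genes). Over all genes tested, the median log2 FC moved from -0.021 (TMM) to -0.018 (RLE, DESeq2). With no filter beyond 1 count, Crem was not past the thresholds (log2 FC 1.16), and Pde4d reached a log2 FC of -1.07 (SE 1.40). The replicate block left the calls of the 10 genes unchanged, and it added 7 calls to the other pathway genes (Rgs18, Prkar1b, Crtc1, Per2, Ier2, Areg and Bhlhe41). Nr4a1 turned sign without LPS/siponimod replicate 2 (-0.36). Sik1 lay between -0.17 and 0.24 over all alternatives. At this depth, counts of a few reads, as for Pde4d, give no firm direction.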
